A study of Sciaenops ocellatus with 24 samples.

Results

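miR-144 and miR-451 are the microRNAs of the red blood cell lineage. They were followed in whole red drum larvae (Sciaenops ocellatus) exposed to oil of the Deepwater Horizon spill. The members were chosen by name. They are ssa-miR-144-3p (named after the Atlantic salmon sequence) and chi-miR-451-5p (named after the goat sequence), and they made up 2 of the 260 miRNA names listed in the 6 count tables of the study. No other name in the tables carried miR-144 or miR-451. Both members were listed in every table, passed the filter on low counts in every comparison and were counted in all 24 libraries.

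The larvae were taken 48 hours post fertilization and pooled, and each of the 8 groups had 3 small RNA libraries. Slick oil was naturally weathered oil taken from the sea surface, and it was given at 1.25%, 2.50% and 5.00% by volume of a water accommodated fraction made at high energy, that is, oil blended hard into seawater. Source oil came from a pipeline and served as a stand-in for the oil of the well, and it was given at 0.135%, 0.27% and 0.54% of such a preparation. Each oil had its own unexposed control group. Embryos came from brood stock tanks and had been treated with formalin for 1 h. The labels do not tie the libraries of a group to different spawns, so a p-value measures only how these libraries spread, which may be technical. The 3 comparisons of an oil share the same 3 control libraries. The listed names and totals of these libraries differ somewhat between comparisons. Source control 1 was at 8924168 to 9404688 counts and slick control 1 at 8135857 to 9039983. All 3 slick controls had their lowest total in the 5.00% comparison. The control counts of both members were the same in each comparison of an oil.

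In fish and mammals both miRNAs are made from 1 short cluster and are produced together in erythroid precursors, where the red cell transcription factor GATA1 switches the cluster on. miR-144 is cut by Dicer in the usual way, and in zebrafish it acts on regulators of globin genes and on Dicer itself. miR-451 bypasses Dicer and is cut by the Argonaute protein Ago2, and in zebrafish it represses gata2, a factor of early blood progenitors, as red cells mature. The order of these genes in the red drum genome was not examined here. In pools of whole larvae, fewer cells of a type and less RNA per cell cannot be told apart.

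Libraries held 2820454 to 9741582 counts, and the 3 libraries at 5.00% slick oil were the shallowest, with at most 4346165. As a check of the labelled tissue, the miRNA numbers listed in every table covered 4 of 4 muscle, 3 of 3 nerve, 2 of 2 eye, 3 of 3 sensory organ, 2 of 2 skin, 2 of 2 gut and 4 of 4 vessel markers. Of the leukocyte markers 3 of 5 were listed, with miR-150 and miR-223 absent, and of the red cell list 4 of 5, with miR-486 absent. The listed ones were the members themselves and the broadly expressed miR-15 and miR-16, so this list gave no independent check of red cells. The liver marker miR-122 was listed in some tables but not in all.

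Levels are given in CPM, that is, counts brought to a common library total and scaled over all 24 libraries by the trimmed mean of M values (TMM). In unexposed larvae ssa-miR-144-3p lay somewhat below the middle of the tested names in level. It was at 379.2, 438.9 and 398.6 CPM in the slick controls, from 1996, 2973 and 2791 counts. In the source controls it was at 239.8, 260.7 and 297.5 CPM, from 1170, 1302 and 1356 counts. Among the names tested in all 24 libraries it ranked 72nd from the top in the slick and 79th in the source controls.

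chi-miR-451-5p was far scarcer. It was at 18.24, 21.70 and 20.71 CPM in the slick controls and at 16.40, 16.42 and 16.45 CPM in the source controls, and ranked 108th and 109th. These values rest on 75 to 147 counts a library. The SD of the source controls, 0.0279 CPM around a mean of 16.43 CPM, was far below the error that counting alone gives at this depth, so this close match between the 3 libraries is not a measure of precision. The mean level of ssa-miR-144-3p was 20.1 times that of chi-miR-451-5p in the slick and 16.2 times in the source controls, as counted, with no correction for how well each small RNA is cloned.

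**Figure D1:**
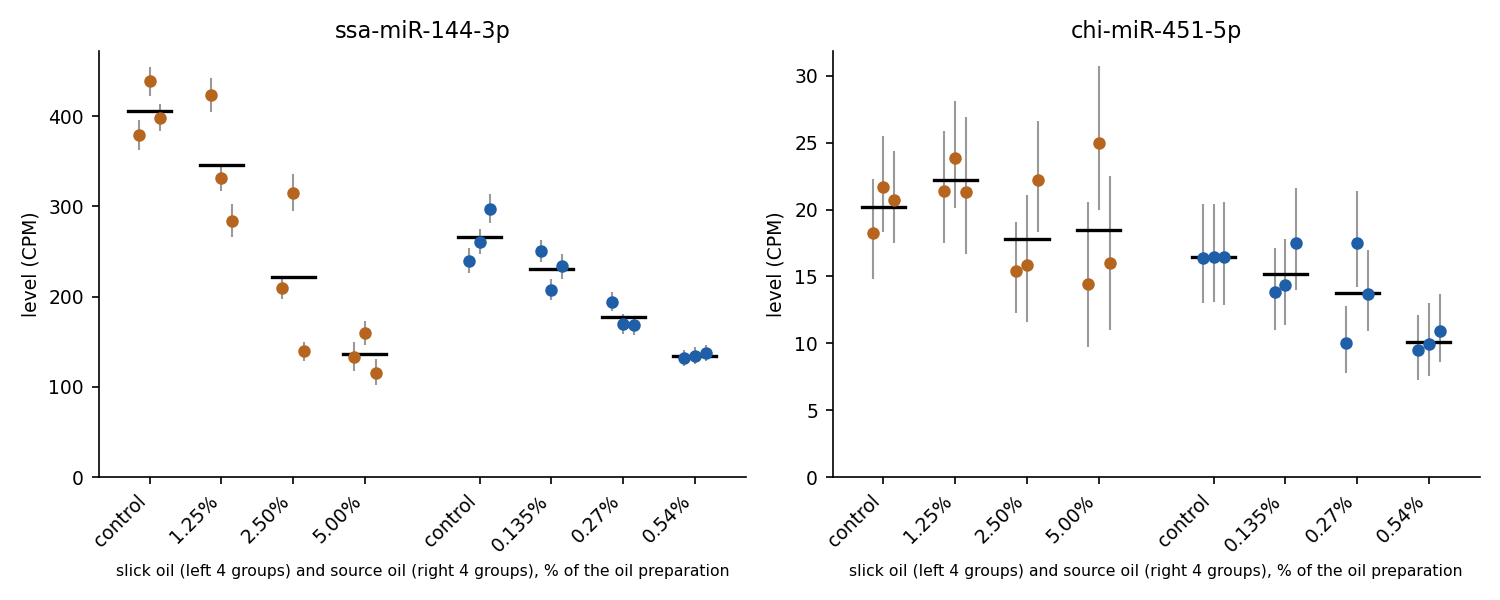
Level in CPM of ssa-miR-144-3p (left) and chi-miR-451-5p (right) in each of the 24 libraries, by group. Points are libraries, grey lines 95% intervals for counting error only, black bars group means. The mean of miR-144 is lower at each higher concentration, from 405.6 to 136.3 CPM for slick and from 266.0 to 134.8 CPM for source oil, though neighbouring groups partly overlap. The exposed slick groups of miR-451 all overlap their control.

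The slick controls held more ssa-miR-144-3p than the source controls, with means of 405.6 ± 30.4 and 266.0 ± 29.2 CPM (SD, n = 3 each, as for all group values), and the libraries of the 2 control groups did not overlap. The same held, in the same direction, for 22.6% of all names tested. The difference was 0.61 ± 0.22 (log2 ± SE) and just missed the threshold over all names tested (edgeR quasi-likelihood test with Benjamini-Hochberg adjustment over the whole table, as for all adjusted p below, adjusted p = 0.0546). It passed in a second fit, restricted to names counted in every library (0.67 ± 0.21, adjusted p = 0.0222). That call held in 3 of 6 fits without 1 library and was lost without slick control 2 (0.49, adjusted p = 0.125), source control 1 (0.0743) or source control 2 (0.0551). In the full fits 6.45% and 11.5% of names were called higher in the slick controls. For chi-miR-451-5p the difference was 0.30 ± 0.21 (adjusted p = 0.402). The controls belong to separate experiments, so the experiment and any other difference between them cannot be told apart.

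Slick oil left ssa-miR-144-3p at 33.6% of its control level at the highest concentration. At 1.25% the libraries were at 423.3, 331.7 and 284.0 CPM, at 2.50% at 210.1, 314.7 and 139.3 CPM, and at 5.00% at 133.4, 159.8 and 115.8 CPM. At 1.25% library 1 lay within the controls, at 2.50% all 3 lay below them but far apart, and at 5.00% all 3 lay well below. The group means were 346.4 ± 70.8, 221.4 ± 88.2 and 136.3 ± 22.1 CPM, the first and second of them 85.4% and 54.6% of the control mean. All 3 exposed libraries lay below all 3 controls in 5.66%, 5.77% and 10.1% of all tested names with rising concentration.

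The spread at 2.50% slick oil depended on the scaling. Divided by the total of the 131 names used for all 24 libraries, ssa-miR-144-3p was at 219.0, 228.0 and 190.6 CPM in these 3 libraries. These values lay close together, whereas TMM set them apart. The counts themselves were 1147, 933 and 722, and the totals of all names listed for 2.50% were 7856249, 4851955 and 5166585. Over these larger totals the 3 libraries were not as close together.

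The fall at 5.00% slick oil passed the test. The log2 fold change was -1.58 ± 0.21, with a 95% interval of -2.12 to -1.05 and adjusted p = 0.0338. This fold change was the 6th lowest and its p the 3rd smallest of the 149 names tested in this comparison, and 2.01% were called lower. In the fit on names counted in every library the value was -1.60 ± 0.20 (adjusted p = 0.00218), the lowest fold change and the smallest p of 109 names, with 2.75% called lower. That fit leaves out names at 0 in any library, so these ranks hold among the remaining names only. Over all names, leaving out 1 library ended the call in 5 of 6 fits, with adjusted p up to 0.264. The exception was the fit without the 5.00% library 2, the highest of that group (adjusted p = 0.0205). Over the names counted in every library it held in 6 of 6.

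At the lower slick concentrations ssa-miR-144-3p did not pass the test. The log2 fold change was -0.28 ± 0.19 at 1.25% (adjusted p = 0.988) and -0.89 ± 0.37 at 2.50% (adjusted p = 0.990). At 2.50% edgeR called 0 of the names, with 4 at an unadjusted p under 0.05 and 1 called by DESeq2, and the unadjusted p of ssa-miR-144-3p was 0.0591. Its fold change at 2.50% was the 9th lowest of 156 over all names. Over the names counted in every library it was -0.97 ± 0.31, the lowest of 117 (adjusted p = 0.656). At 1.25% 0.629% of all tested names were called lower.

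chi-miR-451-5p was not called at any concentration of slick oil. At 1.25% it was at 21.40, 23.86 and 21.33 CPM, at 2.50% at 15.39, 15.85 and 22.20 CPM, and at 5.00% at 14.45, 24.94 and 15.99 CPM. In each slick group at least 1 exposed library lay above the highest control, and the means were 110%, 88.1% and 91.3% of the control mean.

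The fold changes of chi-miR-451-5p were accordingly small against their error. They were 0.09 ± 0.12, -0.20 ± 0.27 and -0.13 ± 0.30 with rising slick concentration (adjusted p = 0.988, 0.990 and 0.953). At 5.00% the 95% interval ran from -0.91 to 0.65, and the value was -0.48 without library 2. The 3 libraries there rest on 30, 89 and 33 counts.

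Under source oil the mean level of ssa-miR-144-3p was lower at each higher concentration. The libraries were at 250.4, 207.7 and 233.5 CPM at 0.135%, at 194.4, 169.9 and 168.2 CPM at 0.27%, and at 132.0, 134.3 and 138.0 CPM at 0.54%. At 0.135% the highest library overlapped the controls, and at the other concentrations all 3 lay below them, with hardly any spread at 0.54%. The SD at 0.54% was 2.27% of the mean, against 3.41% from counting alone, so this small spread is not a measure of precision. The means were 230.5 ± 21.5, 177.5 ± 14.7 and 134.8 ± 3.06 CPM, or 86.7%, 66.7% and 50.7% of the control mean.

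At 0.54% source oil both members passed the test. ssa-miR-144-3p changed by -1.04 ± 0.12 (adjusted p = 0.0119), the 14th lowest fold change of 153 names. This comparison moved many names, with 11.8% called lower and 26.8% not overlapping the controls on the lower side. Over the names counted in every library the value was -1.02 ± 0.12 (adjusted p = 0.000991), the 3rd lowest of 119, with 21.8% called lower. The call over all names was lost without control 2 (adjusted p = 0.0627) or without the 0.54% library 2 (adjusted p = 0.0516), and over the names counted in every library it held in 6 of 6 fits.

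chi-miR-451-5p fell at 0.54% source oil as well. Its libraries were at 9.49, 9.977 and 10.92 CPM, all below the controls at 16.40 to 16.45 CPM, and the mean was 61.7% of the control mean. The log2 fold change was -0.76 ± 0.08 (adjusted p = 0.0119), the 20th lowest of 153, and -0.73 ± 0.13 over the names counted in every library (adjusted p = 0.00559). The SD of the controls was 0.17% of their mean in CPM, against 11.3% from counting alone. This close match enters the SE of 0.08 and its adjusted p, so they are not a measure of precision. Over all names this call was lost in 3 of 6 fits, without control 2 (adjusted p = 0.0627), without control 3 (0.0607) or without the 0.54% library 2 (0.0516), and over the names counted in every library it held in 6 of 6. The counts behind it were 80, 82 and 75 in the controls and 63, 56 and 75 at 0.54%, and the change is one relative to the other names. Scaled by library totals alone it was -0.45, and that of ssa-miR-144-3p -0.74 (adjusted p = 0.0494 for both), since this scaling moved the median of all names by 0.31 at 0.54%. Relative to that median they were -0.74 and -1.02.

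At 0.27% source oil the result for ssa-miR-144-3p depended on which names were fitted. The log2 fold change was -0.56 ± 0.11 over all names (adjusted p = 0.0737), where 1.27% were called lower and 17.1% lay below the controls without overlap. Over the names counted in every library it was -0.58 ± 0.12 and passed (adjusted p = 0.0227), beside 13.9% called lower and 9.57% called higher. That call held in 2 of 6 fits without 1 library, without control 1 or the 0.27% library 1, and in the others adjusted p was 0.0735 to 0.0874. Scaled by library totals alone the change was -0.33 (adjusted p = 0.22), a scaling that moved the median of all names by 0.23 here, and relative to that median it was -0.56. chi-miR-451-5p was at 10.05, 17.53 and 13.71 CPM there, from below to above its controls, with a log2 fold change of -0.23 ± 0.23 (adjusted p = 0.677).

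At 0.135% source oil neither member passed. The fold change was -0.19 ± 0.13 for ssa-miR-144-3p (adjusted p = 0.682) and -0.09 ± 0.11 for chi-miR-451-5p (adjusted p = 0.957), where 1.28% of names were called lower and 8.33% lay below the controls without overlap. The chi-miR-451-5p libraries were at 13.81, 14.34 and 17.51 CPM, on both sides of the controls.

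**Figure D2:**
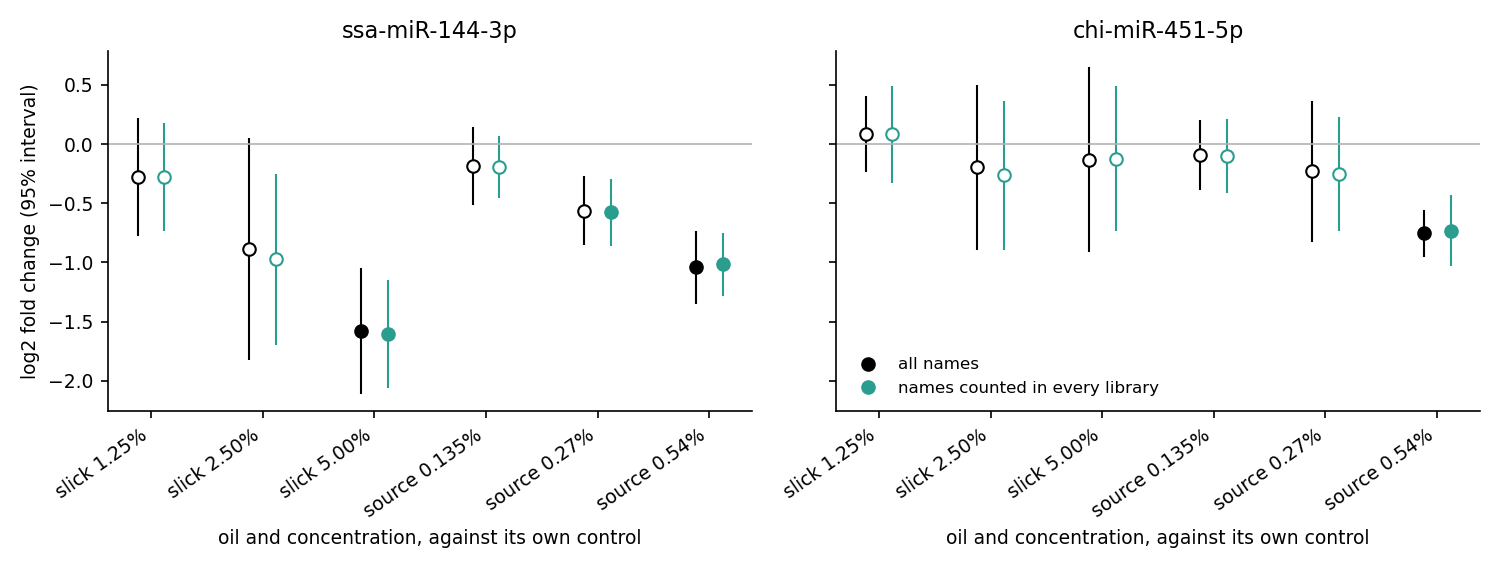
Log2 fold change of ssa-miR-144-3p (left) and chi-miR-451-5p (right) against the control of the same oil, with 95% intervals, for 3 exposed against 3 control libraries. Black points are fits over all names and green points fits over names counted in every library. Filled points have adjusted p under 0.05. miR-144 is filled at 5.00% slick and 0.54% source oil in both fits, miR-144 at 0.27% source oil in the second fit alone, and miR-451 at 0.54% source oil only.

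The authors' deposited tables, made with DESeq2, gave the same directions for ssa-miR-144-3p at all concentrations. In the authors' deposited table for 5.00% slick oil its mean normalized signal went from 1629 to 532.0, with a log2 fold change of -1.55 and FDR of 2.45e-15. In the authors' deposited table for 0.54% source oil it went from 1489 to 737.5, with -1.003 and 4.41e-21. The authors' deposited tables also called ssa-miR-144-3p at 0.27% source oil (-0.59, FDR 1.93e-06) and chi-miR-451-5p at 0.54% source oil (-0.71, FDR 0.000137), and called neither member in the tables for 1.25% and 2.50% slick and 0.135% source oil. In these deposited tables chi-miR-451-5p at 5.00% slick oil had a log2 fold change of -0.13 and FDR of 0.940. Many other names passed there too. At FDR under 0.05, in either direction, 21 of 190 listed names were called at 5.00% slick oil. At 0.27% and 0.54% source oil 33 of 190 and 63 of 198 were called.

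The trend over concentration was then fitted to the 12 libraries of each oil, as the log2 change from the control to the highest concentration. For slick oil the slope of ssa-miR-144-3p was -1.59 ± 0.27 (adjusted p = 0.0197). It was the only call among 162 names, a share of 0.617%, and also the only call (1%) among the 100 names counted in every library (adjusted p = 0.00245). This call was lost over all names without any 1 of the 3 controls, or without library 1 or 3 at 5.00%, with adjusted p of 0.0507 to 0.126, and it held in 12 of 12 fits over the names counted in every library. The slick slope of chi-miR-451-5p was -0.14 ± 0.25 (adjusted p = 0.982).

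For source oil the slopes of both members passed. That of ssa-miR-144-3p was -0.99 ± 0.10 (adjusted p = 0.000104), the smallest p of 167 names, and it held without any 1 of the 12 libraries. That of chi-miR-451-5p was -0.70 ± 0.17 (adjusted p = 0.0134), and its call was lost without the 0.54% library 1 (adjusted p = 0.0502). Of all names 16.2% had a called slope on the lower side, and 24.8% of those counted in every library. Scaled by library totals alone, chi-miR-451-5p had a slope of -0.46 and was no longer called (adjusted p = 0.138). That scaling moved the median source slope of all names by 0.25, and relative to this median the slope of chi-miR-451-5p was -0.70 and that of ssa-miR-144-3p -0.999.

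The order of the group means of ssa-miR-144-3p was the same under both oils, from the control down to the highest concentration, but no step between neighbouring groups passed the test. Between 1.25% and 2.50% slick oil the change was -0.66 ± 0.29, and between 2.50% and 5.00% it was -0.57. Between 0.135% and 0.27% source oil it was -0.36 ± 0.10 (adjusted p = 0.320), and between 0.27% and 0.54% it was -0.41 ± 0.10 (adjusted p = 0.467). Over the whole exposed range the source change from 0.135% to 0.54% was -0.77 ± 0.10 and passed (adjusted p = 0.00568, with 3.59% of names called lower). The slick change from 1.25% to 5.00% was larger but less certain, -1.23 ± 0.30 (adjusted p = 0.267).

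For chi-miR-451-5p the source means also ran down in the order of concentration, at 16.43, 15.22, 13.76 and 10.13 CPM, and the slick means did not, at 20.22, 22.19, 17.81 and 18.46 CPM. No step between neighbours passed for either oil. The source change from 0.135% to 0.54% was -0.58 ± 0.19, with adjusted p = 0.117 over all names and 0.0436 over the names counted in every library (11% called lower). Without any 1 of the 6 libraries the latter call was lost, with adjusted p of 0.0634 to 0.133.

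Whether the oils differed was tested in 1 fit over the 24 libraries, as the change under slick oil minus that under source oil, taking the lowest, middle and highest concentrations as pairs. The percentages of the oils differ, so only their ranks match, and nothing shows that the doses of oil compounds were alike. At the highest rank the difference was -0.59 ± 0.31 for ssa-miR-144-3p (95% interval -1.24 to 0.06, adjusted p = 0.318) and 0.57 ± 0.30 for chi-miR-451-5p (95% interval -0.06 to 1.19, adjusted p = 0.318). Scaled by library totals alone these became -1.06 (adjusted p = 0.0619) and 0.10 (adjusted p = 0.917), with the median of all names moved by -0.49. At the lowest and middle ranks the difference was -0.02 and -0.29 for ssa-miR-144-3p, and 0.24 and 0.07 for chi-miR-451-5p. The -0.29 became -0.63 without library 2 and -0.04 without library 3 at 2.50% slick oil, and -0.62 with library totals. edgeR called 0 names at any rank, with 3, 13 and 22 names at an unadjusted p under 0.05 and 2, 6 and 8 called by DESeq2. A difference between the oils was thus not shown for either member, and at the highest rank the intervals reach beyond a 2-fold difference in either case.

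Because both members are counted in the same library, their ratio needs no scaling between libraries. The slick controls had ratios of 20.8, 20.2 and 19.2 counts of ssa-miR-144-3p per count of chi-miR-451-5p. At 1.25% slick oil the ratios were 19.8, 13.9 and 13.3, at 2.50% 13.7, 19.9 and 6.28, and at 5.00% 9.23, 6.40 and 7.24. The 5.00% libraries all lay far below the controls, and 1 library at each lower concentration lay among them.

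Under source oil the ratio moved little. It was 14.6, 15.9 and 18.1 in the controls, 18.1, 14.5 and 13.3 at 0.135%, 19.3, 9.69 and 12.3 at 0.27% and 13.9, 13.5 and 12.6 at 0.54%. At 0.54% all 3 libraries lay below the controls, and at the other concentrations the groups overlapped. The geometric means were 16.1, 15.2, 13.2 and 13.3 for source oil and 20.1, 15.4, 11.9 and 7.54 for slick oil, each from the control upwards.

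In exact two-sided permutation tests the ratio over all 9 exposed slick libraries differed from the controls by -0.85 on the log2 scale (p = 0.05), and over all 9 exposed source libraries by -0.22 (p = 0.25). Both oils together, permuted within oil, gave -0.53 (exact permutation p = 0.0214). Adjusted over the 9 comparisons of the ratio these became 0.225, 0.321 and 0.192, so none passed. At 5.00% slick oil alone the change was -1.41, and its exact permutation p of 0.1 is the smallest that 3 against 3 libraries can give (adjusted 0.225). At 0.54% source oil it was -0.28, with the same exact p of 0.1 and adjusted p of 0.225.

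**Figure D3:**
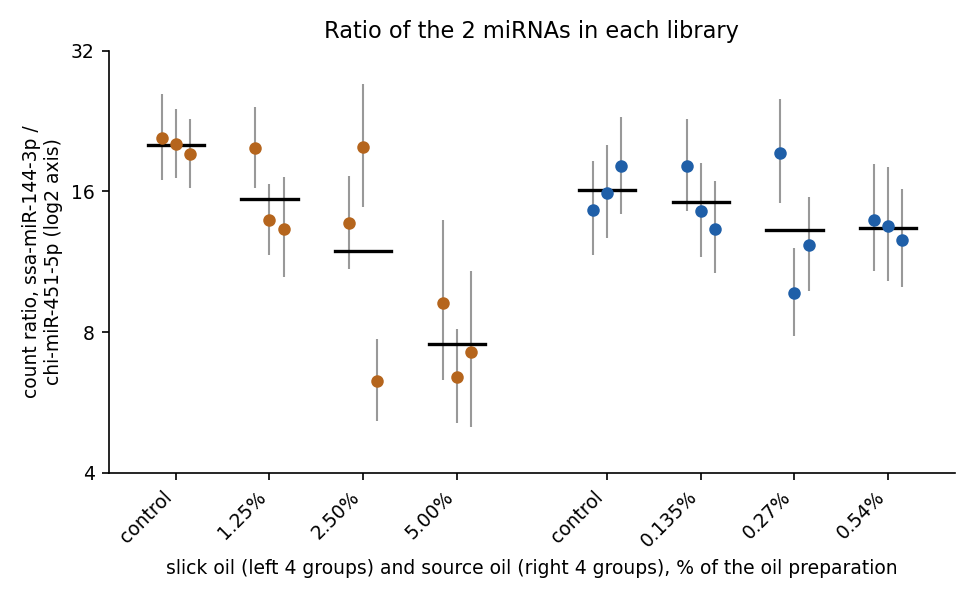
Counts of ssa-miR-144-3p per count of chi-miR-451-5p in each library (log2 axis), by group. Points are libraries, grey lines 95% intervals for counting error only, black bars geometric means. The slick controls lie between 19.2 and 20.8 and the 5.00% slick libraries between 6.40 and 9.23, while the source groups stay between 9.69 and 19.3.

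The other blood and vessel names were taken from lists by miRNA number, with any species prefix. The red cell list held miR-15 and miR-16 besides the members. These 2 are broadly expressed and were picked for their abundance in red cells. No miR-15 or miR-16 name was called in any of the 6 comparisons, but most could not be read. fru-miR-15b and oar-miR-16b were at 0 in some libraries and above 1000 counts in others of the same group, and ola-miR-15a and ssa-miR-15b-5p had at most 15 counts. aca-miR-16a-5p was counted throughout at 0.54% source oil, at 1589, 1728 and 1316 counts in the controls and 2087, 1775 and 2258 in the exposed libraries. Its log2 fold change was -0.06 ± 0.08 (adjusted p = 0.766), at a concentration where ssa-miR-144-3p was at 50.7% of its control. aca-miR-16a-5p was also counted throughout at 2.50% slick oil (0.02 ± 0.22) and at 0.135% source oil (0.002 ± 0.09). At 0.54% source oil oar-miR-16b had the same 2087 and 1775 counts in libraries 1 and 2, so these names are not separate measurements.

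The leukocyte list, of miRNAs of white blood cells, had no call over all names in any comparison. tgu-miR-142-5p, a miRNA found throughout the blood lineages, changed by -0.40, -0.52 and -0.15 with rising slick and by 0.03, 0.22 and 0.30 with rising source concentration. At 0.54% source oil its mean level was 25.35 CPM in the controls and 31.22 CPM in the exposed libraries, scaled within that table, and the change of 0.30 ± 0.18 did not pass (adjusted p = 0.318). Its value thus lay on the other side of 0 from those of both members. The name ola-miR-142 had the same counts in most tables and is no second measurement. tgu-miR-155-5p, a miRNA of activated immune cells, changed by -0.02, 0.29 and 0.39 with slick and by -0.22, -0.08 and 0.08 with source oil.

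Over the names counted in every library 1 leukocyte name was called, mmu-miR-142b at 0.27% source oil, which rose by 0.59 (adjusted p = 0.0437) from 17 to 22 counts in the controls to 35 to 39. The median log2 fold change of the tested leukocyte names was -0.31, -0.26 and -0.15 for slick and -0.10, 0.22 and 0.29 for source oil. The median of all names tested was between -0.03 and 0.07 in these comparisons. With 4 or 5 tested names that partly share counts, these medians describe the names and are not a test.

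The vessel list served as a comparison within the circulatory system. Its endothelial miRNA tgu-miR-126-5p changed by -0.05, 0.20 and -0.11 ± 0.11 with slick oil and by -0.07, -0.09 and -0.16 ± 0.08 with source oil, and was not called. Over all names the list had 1 call, ipu-miR-222a at 5.00% slick oil, which went from 21308, 24571 and 28851 counts to 0 in all 3 libraries. Reads under another prefix of the same miRNA, ssa-miR-222a-5p, were at 11276, 18162 and 12248 counts in those libraries, with a change of 0.26 ± 0.07 (adjusted p = 0.166). The 2 names of miR-222a thus went apart. ipu-miR-222a was also at 0 without oil, in source controls 2 and 3, against 22364 counts in source control 1. Its call at 5.00% slick oil was therefore not read as a change of this miRNA.

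Under source oil ssa-miR-222a-5p ran down beside the members, with changes of -0.37, -0.55 and -0.71 ± 0.22. It did not pass over all names at 0.54% (adjusted p = 0.0935) and passed over the names counted in every library (-0.69, adjusted p = 0.0185), as it did at 0.27% (adjusted p = 0.0379). The other vessel call in that fit was hsa-miR-130b-5p at 0.27%, with -0.45 (adjusted p = 0.0365). The median of the vessel names stayed between -0.11 and 0.08 in the 6 comparisons.

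Set against tgu-miR-126-5p within each library, a description chosen after the data were seen, ssa-miR-144-3p had 49.1 to 50.4 counts per 1000 in the slick controls. It had 33.8 to 55.7 at 1.25%, 13.7 to 33.3 at 2.50% and 13.9 to 22.4 at 5.00%. For source oil the ranges were 30.9 to 38.8 in the controls, then 28.6 to 32.9, 21.9 to 26.6 and 16.7 to 19.7. On this scale the ssa-miR-144-3p groups from the middle concentration up lay below their controls without overlap. How many of all names did so on this scale was not counted. In CPM it was 5.77% and 10.1% at 2.50% and 5.00% slick oil, and 17.1% and 26.8% at 0.27% and 0.54% source oil. chi-miR-451-5p had 1.95 to 2.15 per 1000 in the source controls, then 1.81 to 2.34, 1.37 to 2.26 and 1.32 to 1.46 with rising concentration. In the slick controls it had 2.43 to 2.55, then 2.54 to 2.86, 1.68 to 2.18 and 1.93 to 3.50. On this scale chi-miR-451-5p lay below its controls without overlap at 2.50% slick and 0.54% source oil, but not at 5.00% slick oil.

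**Figure D4:**
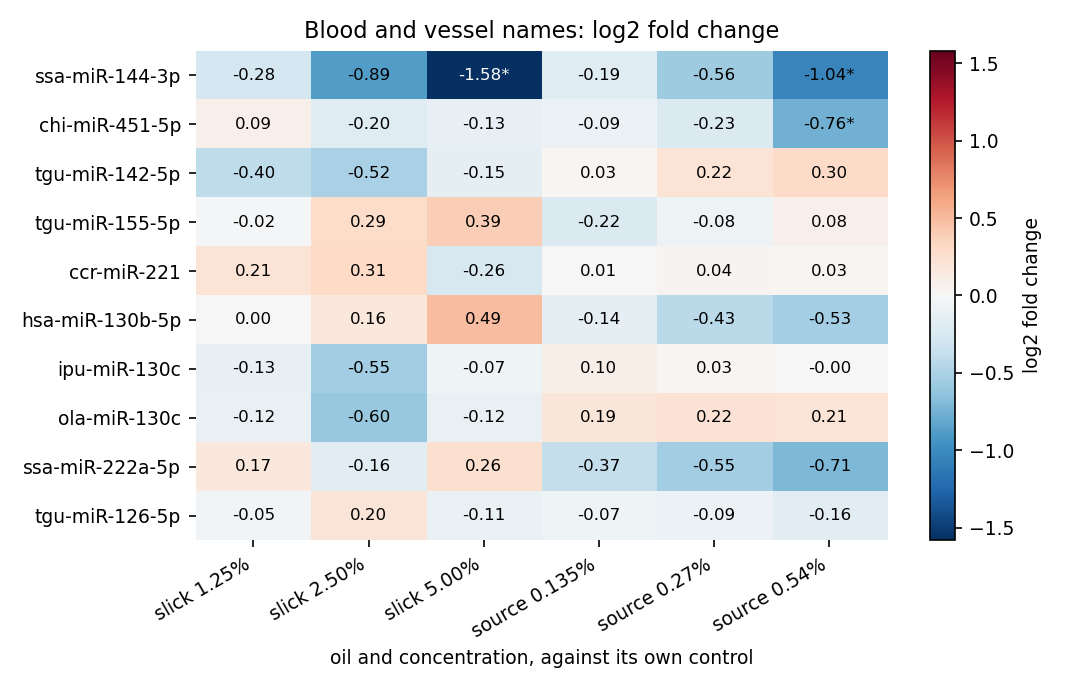
Log2 fold change of the 10 blood and vessel names counted in every library of all 6 tables, against the control of the same oil (3 against 3 libraries, all names fitted). Blue is lower and red higher, and an asterisk marks adjusted p under 0.05. The asterisks fall on ssa-miR-144-3p at 5.00% slick and 0.54% source oil and on chi-miR-451-5p at 0.54% source oil, while tgu-miR-126-5p stays between -0.16 and 0.20.

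The names most like each member were found by Pearson's r of log2(CPM + 1) over the 12 libraries of an oil, averaged over both oils, among 96 names counted in every library. The libraries of an oil share their control and their exposure groups, so an r describes a like pattern over concentration and nothing more. For ssa-miR-144-3p the most alike were aca-miR-132-5p, a miRNA induced by activity in neurons (r = 0.72 for slick and 0.87 for source oil), ssa-miR-18a-5p, whose cluster also holds miR-17 and miR-92, (0.75 and 0.77) and chi-miR-182 of sensory cells (0.59 and 0.92). chi-miR-451-5p came 10th, with r of 0.32 for slick and 0.73 for source oil.

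For chi-miR-451-5p the most alike were ssa-miR-194b-5p, a miRNA of gut and liver epithelium (r = 0.43 and 0.94), and oan-miR-458-5p (0.47 and 0.64), with ssa-miR-144-3p the third. At the highest concentrations none of these names was as low against its control as ssa-miR-144-3p. aca-miR-132-5p was at 72.1% of its control at 5.00% slick and 68.7% at 0.54% source oil, ssa-miR-18a-5p at 65.8% and 87.4%, and chi-miR-182 at 77.5% and 74.8%. ssa-miR-194b-5p was at 80.1% and 62.7%, the latter close to the 61.7% of chi-miR-451-5p, and oan-miR-458-5p at 70.1% and 90.9%.

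**Figure D5:**
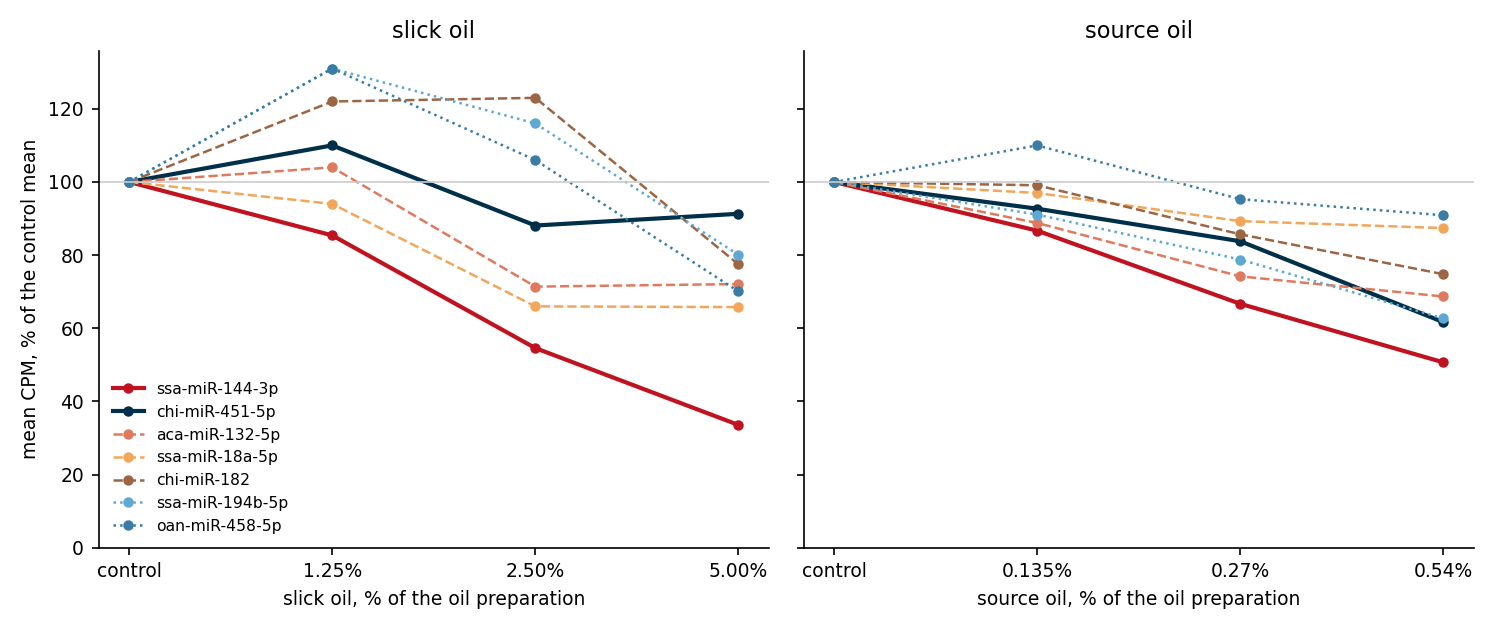
Mean CPM as a percent of the control mean of the same oil (n = 3 libraries per point) for both members (solid lines) and the names most like miR-144 (dashed) and miR-451 (dotted), over slick oil (left) and source oil (right). miR-144 is the lowest line at every exposed concentration, ending at 33.6% and 50.7%, and miR-451 ends at 91.3% for slick and 61.7% for source oil.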

How the data were processed

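Per the labels, small RNA of pooled larvae was isolated with a miRNeasy kit and sequenced on an Illumina NextSeq from NEBNext libraries. The authors deposited whole-number read counts per mature miRNA name, in 6 tables of 193 to 205 names with the prefixes of many species. How reads were aligned, to which miRBase release, and how a read matching more than 1 name was counted is not given in the sources used here, so reads of 1 miRNA can be split between names, and the arm in a name was not checked. A table lists names with at least 1 count in control library 1. A DESeq2 table of the authors was deposited for each comparison (per the submitters' processing notes and the file headers), with a mean signal per group (counts over size factors), a score (the difference of these means), a log2 fold change, a p-value and an FDR, used only where named. Columns that could not be tied to a sample or comparison numbered 0.

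Counts were tested with edgeR 4.0.16 (R 4.3.3; TMM, quasi-likelihood F test, no covariate) on names that reached 10 counts in 3 or more libraries, each table on its own, and calls have adjusted p under 0.05. SE is the absolute log2 fold change over the square root of F. Fits over an oil (12 libraries) used the 185 slick or 190 source names whose control counts were the same in its tables, and the fit over 24 libraries the 131 common to all. A name can be at 0 in some libraries and high in others. The common biological coefficient of variation was up to 139% in the fits of single tables and up to 161% in fits over an oil. A second set of fits therefore used names counted in every library (11.4% to 36.7%). Ratios were tested by exact permutation. Alternatives were DESeq2 1.42.0, its size factors, library totals, no filter, all 12 libraries, a replicate block and leaving out each library. Scripts were tested on data simulated with less spread than the fits over all names had, and without abundant names dropping to 0. That checks the code and not how often calls are false in these data. Intervals of fold changes come from the edgeR fit and include the spread between libraries, and those of single libraries cover counting error only.

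The members, the lists and the second set of fits were chosen with earlier results of these data known. The rule for named miRNAs took both members, all names of the red cell, leukocyte and vessel lists and the 3 names most like each member. Sequences of the miRNAs were not analysed here.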

Additional observations from a re-analysis of the deposited data

How the results depend on the processing

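Over 652 alternatives to 49 results, 598 stayed the same, 23 lost the call, 12 gained it and 17 reversed. Another 2, ratios at a single concentration, moved by more than 1 SD of the exposed libraries. Staying the same means keeping the direction and the side of the threshold. For such ratios it means a move below that SD, and direction and threshold were not compared. Where no cause is given below, the cause was not tested. Every value is a log2 difference. The calls at 5.00% slick and 0.54% source oil held in the fits on names counted in every library. Counts of calls differed by more than 1.5 times between edgeR over all names, edgeR over the names counted in every library and DESeq2: 1, 0 and 3 at 1.25% slick, 0, 0 and 1 at 2.50%, 3, 6 and 21 at 5.00%, 2, 0 and 23 at 0.135% source, 2, 27 and 31 at 0.27%, and 22, 47 and 64 at 0.54%.

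For ssa-miR-144-3p the call at 5.00% slick oil was lost with library totals (-1.69, adjusted p = 0.0828), with no filter on low counts (-1.63, 0.0595) and when the 12 slick libraries were fitted together (-1.54). At 0.27% source oil it was gained with DESeq2 (-0.59), with names counted in every library (-0.58) and with all 12 libraries (-0.56). DESeq2 also called the slick change from lowest to highest (-1.25, with 19 of 162 names called). It called the source steps from 0.135% to 0.27% (-0.35, 17 of 167) and from 0.27% to 0.54% (-0.43, 6 of 167). edgeR called 0 in each. The difference between the controls was called with DESeq2's size factors in edgeR (0.66), library totals (0.75), DESeq2 (0.66) and names counted in every library (0.67).

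For chi-miR-451-5p, library totals turned the change at 0.135% (0.0050) and 0.27% (0.0175) source oil, the step from the source control to 0.135% in the fit of 12 libraries (0.048), the step from 2.50% to 5.00% slick oil (-0.14) and the difference between oils at the middle rank (-0.11), and ended the call of the source slope (-0.46). They also moved ssa-miR-144-3p at 0.135% source oil to -0.09 and chi-miR-451-5p to 0.043, -0.11 and -0.24 with rising slick concentration. The source change from the lowest to the highest concentration was called by DESeq2 (-0.59) and with names counted in every library (-0.58).

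With the replicate number as a block (replicate block), ssa-miR-144-3p changed by -1.60 at 5.00% slick oil (adjusted p = 0.326) and by -1.03 at 0.54% source oil, and chi-miR-451-5p by -0.76 there (adjusted p = 0.0852 for both). All 3 calls were lost, but with the block 0 of all tested names were called at 5.00% slick or at 0.54% source oil. Every call made without the block was thus lost. In the fits of 12 libraries the slopes and the source change from lowest to highest concentration kept their calls. Of 18 same-numbered pairs 9 correlated above 0.1, with r from -0.323 to 0.498. Of the exposed libraries 8 of 18 were most like the control of their own number. With only 3 controls per oil, these values cannot settle whether the numbers pair the samples.

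Leaving out each library gave ranges of -1.78 to -1.47 for ssa-miR-144-3p at 5.00% slick oil, -1.11 to -0.90 at 0.54% source oil, -1.77 to -1.51 for its slick slope and -0.19 to 0.10 for its difference between oils at the lowest rank. For chi-miR-451-5p the ranges were -0.029 to 0.15 at 1.25% and -0.48 to 0.028 at 5.00% slick oil, -0.45 to 0.026 from lowest to highest and -0.14 to 0.39 from 2.50% to 5.00%. For source oil they were -0.77 to -0.71 at 0.54%, -0.75 to -0.67 for the slope and -0.35 to 0.055 from 0.135% to 0.27%, and -0.12 to 0.28 for the difference between oils at the middle rank. The ratio at 0.54% source oil ranged from -0.35 to -0.19. Values that were not called also moved, from -0.50 to -0.17 for ssa-miR-144-3p at 1.25% slick and -0.29 to -0.11 at 0.135% source oil, and from -0.50 to -0.14 for chi-miR-451-5p at 2.50% slick and -0.44 to -0.021 at 0.27% source oil. At 5.00% slick oil chi-miR-451-5p had a CV between libraries of 30.7% against 14% from counting.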
